A study of Mus musculus with 12 samples.

Results

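Nicotinic acetylcholine receptor subunits and the genes that make acetylcholine were followed through the trigeminal ganglia (TG) and the spinal trigeminal nucleus caudalis (Sp5C) of mice. The 10 genes were taken by name from the deposited protein-coding table. They are the alpha subunit genes Chrna3, Chrna4, Chrna5, Chrna6 and Chrna7, the beta subunit genes Chrnb2, Chrnb3 and Chrnb4, the enzyme gene Chat and the choline transporter gene Slc5a7. They account for 25 of the 57109 transcripts and 10 of the 21981 genes in that table. The mice were wild-type C57BL/6 animals aged 8 weeks, and the series concerns chronic inflammation and pain of the temporomandibular joint. The 12 libraries fell into 4 groups of 3, namely STG and CTG from ganglia and SSp5C and CSp5C from the brainstem nucleus. The labels do not explain the letters S and C, so the letters are used as they stand. Nor do they say which libraries share an animal or a pool, so every p-value refers to the scatter among these libraries alone, and that scatter may be technical.

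Nicotinic receptors are pentameric cation channels opened by acetylcholine. In the brain the common form pairs the Chrna4 and Chrnb2 subunits, Chrna7 can form a receptor on its own, and the Chrna3 and Chrnb4 subunits are known from autonomic ganglia. Chrna5 and Chrnb3 are accessory subunits, and Chrna6 is often found with Chrnb3. Choline acetyltransferase (Chat) makes the transmitter, Slc5a7 takes choline back into the terminal and Slc18a3 loads acetylcholine into vesicles. These last genes are classical markers of cholinergic neurons, among which are the motor neurons of the brainstem and spinal cord. Trigeminal sensory neurons use glutamate and peptides, and several nicotinic subunits are known from them.

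Levels are FPKM, fragments scaled to transcript length and library size, summed over the transcripts of a gene. Libraries of a group correlated at r = 0.988 to 0.995 over genes and libraries of different tissues at 0.908 to 0.926, on log2(FPKM + 1) values. In limma's test 8 of 8 sensory ganglion markers were higher in TG, and 8 of 8 Sp5C markers were higher in Sp5C. Of all 13081 genes 36.2% passed as higher in TG and 35% as lower. The directions are those of the tissue labels. The lists were chosen with earlier results of these data known, so they are no independent check of the labels. Some ganglion libraries stood apart. The summed level of 8 pituitary genes was 2870 FPKM in STG replicate 1 and 2.57 to 51.7 in the other TG libraries. The summed level of 9 granulocyte and bone marrow genes was 871 FPKM in CTG replicate 1 and 292 in CTG replicate 3. It was 3.97 to 33.5 in the other TG libraries. The FPKM table gives no read numbers, so the depth behind a value is unknown.

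The first comparison set the ganglion against the brainstem nucleus. Sp5C held Chrna4 and the genes of acetylcholine synthesis and uptake, whereas TG held more Chrna7 and, at lower levels, Chrna6 and Chrnb3. Chrnb2 was high in both tissues. Over all 12 libraries 7 of the 10 genes reached the mean of 1 FPKM asked for by limma's test. All of these passed at an adjusted p of 0.05 or less, 4 higher and 3 lower in TG, against a background of 71.2% of 13081 genes, 36.2% higher and 35% lower. Of these 7, Chrna7 and Chrnb2 alone had a mean of at least 1 FPKM in both tissues, so the other 5 entered the test through the tissue in which they were high. Without the filter 9 of the 10 passed, 6 higher and 3 lower in TG, against 58.7% of 19072 genes, 30.6% higher and 28.1% lower. For 8 of the 10 every TG library lay on one side of every Sp5C library, as for 43% of those genes. The median log2 difference of the 10 genes was 0.38 and that of all genes 0.01. In bulk tissue fewer cells of a type and less RNA per cell cannot be told apart.

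**Figure D1:**
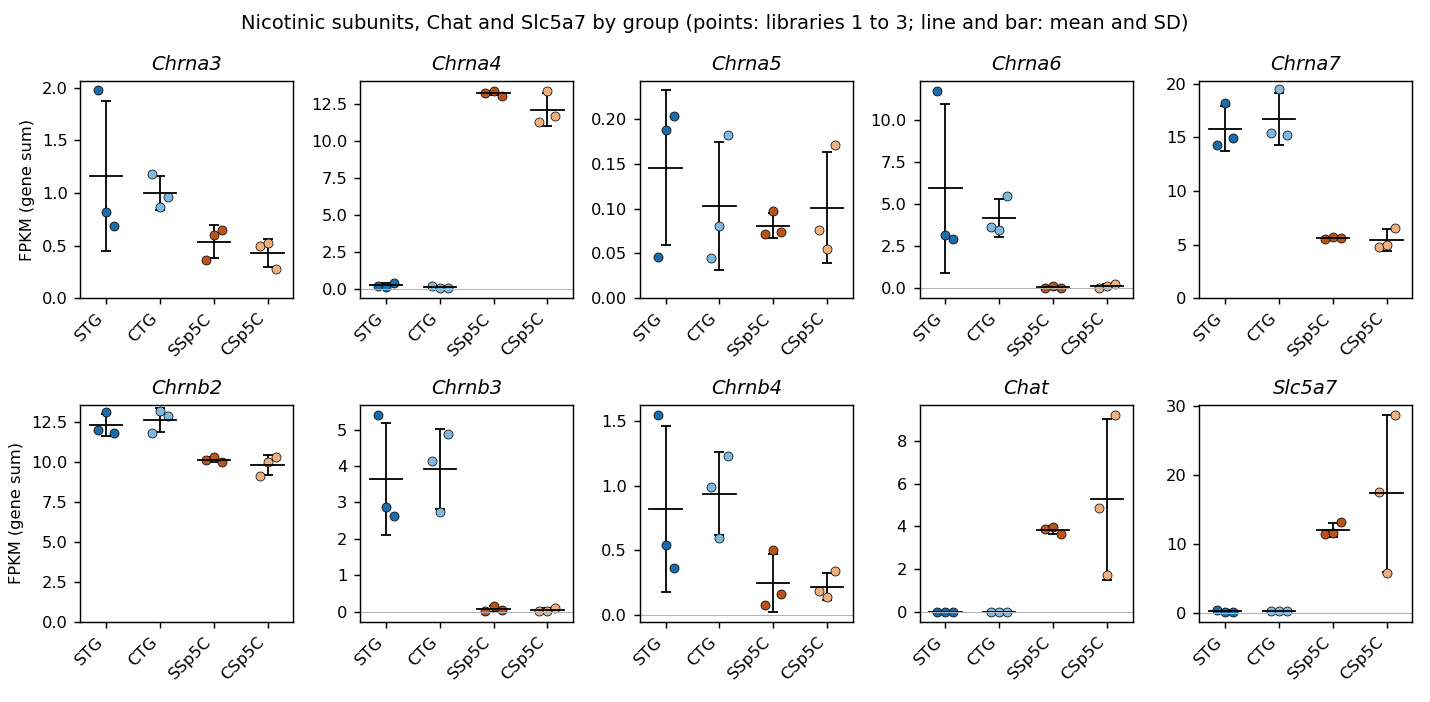
FPKM of the 10 genes (gene sums) in each of the 12 libraries, each gene on its own linear axis. Points are libraries 1 to 3 from left to right, and lines and bars are the group mean and SD. Chrna4, Chat and Slc5a7 stand near 0 in both TG groups, Chrna6 and Chrnb3 near 0 in both Sp5C groups, and Chat and Slc5a7 spread widely in CSp5C.

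Among the alpha subunits, Chrna4 differed most between the tissues. In SSp5C it stood at 13.3, 13.4 and 13.1 FPKM and in CSp5C at 11.3, 13.4 and 11.7. In STG it stood at 0.221, 0.111 and 0.405 and in CTG at 0.227, 0.0896 and 0.0894. Every Sp5C library lay above every TG library, and the 3 SSp5C libraries were nearly level. Mean FPKM was 12.7 ± 0.951 in Sp5C and 0.19 ± 0.122 in TG (SD, n = 6 libraries each), a ratio of 66.8 between the means. On the log2(FPKM + 1) scale, which shrinks differences of low genes, TG minus Sp5C was -3.53 (SE 0.0705, limma adjusted p = 5.15e-12).

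Chrna7, whose product binds alpha-bungarotoxin, was the highest of the 8 subunit genes in TG. It stood at 14.3, 18.2 and 14.9 FPKM in STG and 15.4, 19.5 and 15.2 in CTG. In Sp5C it stood at 5.48, 5.7 and 5.62 in SSp5C and 4.74, 4.92 and 6.56 in CSp5C. The tissues did not overlap, as the lowest TG library was at 14.3 FPKM and the highest Sp5C library at 6.56. The TG mean of 16.3 ± 2.1 was 2.96 times the Sp5C mean of 5.5 ± 0.649 (SD, n = 6 each), with a log2 difference of 1.41 (SE 0.0897, limma adjusted p = 5.85e-08).

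Sequence before the start sites of Chrna4 and Chrna7 is shown because these genes hold the highest share of subunit transcripts in Sp5C and in TG, respectively. Of the 10 genes, 8 had an entry in the RefSeq promoter table of build GRCm38.p6. From each window of 250 bases before the start, the stretch before the first base covered by an exon of GENCODE M21 (the same build, GRCm38) is printed. Capitals mark GGGCGG, the GC box, and CANNTG, the E-box, on either strand, so that a GC box of the other strand reads ccgccc.
Chrna4, upstream of the start site (chr2:181039306-181039427, minus strand): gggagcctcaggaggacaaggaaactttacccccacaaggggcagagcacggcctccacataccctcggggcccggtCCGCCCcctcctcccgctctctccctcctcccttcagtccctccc
Chrna7, upstream of the start site (chr7:63212570-63212776, minus strand): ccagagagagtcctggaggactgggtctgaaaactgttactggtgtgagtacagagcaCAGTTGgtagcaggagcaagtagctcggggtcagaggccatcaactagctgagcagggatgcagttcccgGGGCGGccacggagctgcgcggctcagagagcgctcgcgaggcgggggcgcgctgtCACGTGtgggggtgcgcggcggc
The Chrna4 stretch of 122 bases ends 128 bases before the start and has 68% G and C, against a median of 50.8% for the matching stretch of 32851 promoter entries. It holds 1 GC box (13.1% of entries have any in such a stretch) and 0 E-boxes (42.4% have any). The Chrna7 stretch of 207 bases ends 43 bases before the start and has 65.2% G and C (median 51.7%). It holds 1 GC box (26% of entries have any) and 2 E-boxes (60.2% have any). These matches describe letters and not sites in use.

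Chrna6 was high in the ganglion and close to 0 in Sp5C. It stood at 11.7, 3.15 and 2.93 FPKM in STG, at 3.62, 3.44 and 5.46 in CTG, and between 0.0368 and 0.277 in the 6 Sp5C libraries. All TG libraries lay above all Sp5C libraries, but STG replicate 1 was far above the other TG libraries. The log2 difference was 2.30 (SE 0.26, limma adjusted p = 1.15e-05). STG replicate 1 was also the library with the high pituitary level, with 7 of 7 measured pituitary genes at their highest there, against 24.1% of all genes measured in TG. The summed pituitary level ranged from 2.57 to 2870 FPKM in STG and from 4.29 to 51.7 in CTG, and none of the 8 pituitary genes was at 0 throughout TG. Without STG replicate 1 the TG mean of Chrna6 was 3.72 ± 1.01 FPKM (SD, n = 5), which remained above every Sp5C library. The part of pituitary RNA in the level of STG replicate 1 was not tested.

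Chrna3 and Chrna5, which lie beside Chrnb4 on chromosome 9, were low in both tissues. Chrna3 stood at 1.98, 0.822 and 0.684 FPKM in STG and 1.18, 0.865 and 0.963 in CTG, against 0.281 to 0.649 in Sp5C. Its lowest TG library lay just above its highest Sp5C library. It missed the filter at a mean of 0.783 FPKM, and without the filter its log2 difference was 0.47 (limma adjusted p = 0.0118). Chrna5 ranged from 0.0454 to 0.204 FPKM in TG and from 0.0555 to 0.172 in Sp5C, so that the tissues overlapped. Its log2 difference without the filter was 0.04 (95% interval -0.058 to 0.142, limma adjusted p = 0.46), and at levels this close to 0 a difference may not be detectable.

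Among the beta subunits, Chrnb2 was the most even. It stood at 12, 13.1 and 11.8 FPKM in STG and 11.8, 13.2 and 12.9 in CTG, and at 10.1, 10.3 and 10 in SSp5C and 9.1, 9.97 and 10.3 in CSp5C. Every TG library was above every Sp5C library although the means of 12.5 ± 0.678 and 9.96 ± 0.444 (SD, n = 6 each) were only 1.26 times apart. The log2 difference was 0.30 (SE 0.0451, limma adjusted p = 0.000107).

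Chrnb3 followed Chrna6. It stood at 5.41, 2.88 and 2.63 FPKM in STG, at 4.13, 2.73 and 4.88 in CTG and between 0.0118 and 0.164 in Sp5C. The tissues did not overlap, and STG replicate 1 was again the highest library. The log2 difference was 2.14 (SE 0.151, limma adjusted p = 1.4e-07). In the GRCm38 annotation the genes are neighbours on chromosome 8, with Chrnb3 on the plus strand at 27368711 to 27399730, Chrna6 on the minus strand at 27403212 to 27413944, and 3481 bases between them.

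Chrnb4 stood at 1.55, 0.542 and 0.361 FPKM in STG, 0.992, 0.592 and 1.23 in CTG, 0.0811, 0.502 and 0.159 in SSp5C and 0.183, 0.137 and 0.34 in CSp5C. STG replicate 3 lay below SSp5C replicate 2, so the tissues overlapped. Without the filter the log2 difference was 0.58 (SE 0.159, limma adjusted p = 0.00908). The 3 clustered genes occupy chromosome 9 from 54980880 (Chrna5, plus strand) to 55048779 (Chrnb4, minus strand), with Chrna3 between them on the minus strand. STG replicate 1 was the highest TG library for Chrna3 and Chrnb4 and among the lowest, at 0.0459 FPKM, for Chrna5.

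The genes of transmitter synthesis and choline uptake were high in Sp5C alone. Chat stood at 3.9, 3.97 and 3.64 FPKM in SSp5C and at 4.85, 1.71 and 9.23 in CSp5C. In TG it was listed at 0.0135, 0 and 0 in STG and at 0, 0.0119 and 0.0112 in CTG. No TG library came near the lowest Sp5C library. The log2 difference was -2.35 (SE 0.247, limma adjusted p = 6.09e-06). Its size depended on the pseudocount and was -5.29 with 0.1 in place of 1.

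Slc5a7 stood at 11.5, 11.6 and 13.3 FPKM in SSp5C and 17.6, 5.85 and 28.7 in CSp5C. It was measurable in TG, at 0.428, 0.252 and 0.225 in STG and 0.343, 0.346 and 0.3 in CTG. The tissues did not overlap (log2 difference -3.44, SE 0.282, limma adjusted p = 9.3e-07). In Sp5C, Slc5a7 held 2.92 to 3.64 times the FPKM of Chat in every library, with a mean ratio of 3.28 ± 0.325 (SD, n = 6), although both genes varied about 5-fold among the CSp5C libraries.

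Sequence before the start sites of Chat and Slc5a7 is shown because these genes varied together across the Sp5C libraries. Capitals again mark GGGCGG and CANNTG on either strand.
Chat, upstream of the start site (chr14:32465990-32466159, minus strand): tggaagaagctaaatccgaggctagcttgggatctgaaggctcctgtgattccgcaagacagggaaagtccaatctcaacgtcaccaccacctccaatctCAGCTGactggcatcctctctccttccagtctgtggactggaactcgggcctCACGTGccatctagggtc
Slc5a7, upstream of the start site (chr17:54299035-54299284, minus strand): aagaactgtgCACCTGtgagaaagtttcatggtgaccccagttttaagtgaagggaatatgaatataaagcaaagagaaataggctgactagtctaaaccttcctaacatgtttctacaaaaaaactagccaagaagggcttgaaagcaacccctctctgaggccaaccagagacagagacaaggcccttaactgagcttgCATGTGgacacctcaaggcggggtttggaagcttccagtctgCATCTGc
The Chat stretch of 170 bases ends 80 bases before the RefSeq start and has 54.7% G and C (median 51.2% over all entries). It holds 2 E-boxes (53.5% of entries have any in such a stretch) and 0 GC boxes (19.5% have any). The Slc5a7 stretch of 250 bases has 45.6% G and C (median 52.4%). It holds 3 E-boxes (66.2% of entries have any) and 0 GC boxes (32.7% have any). Neither stretch has the GC box seen before Chrna4 and Chrna7, which says only that these letters are not in these windows.

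Within each tissue, FPKM allows the genes to be ordered by level. In TG the order ran Chrna7, Chrnb2, Chrna6, Chrnb3, Chrna3, Chrnb4, Slc5a7, Chrna4, Chrna5 and Chat. The ranges of neighbours were separate between Chrna7 and Chrnb2, Chrnb2 and Chrna6, Chrnb3 and Chrna3, and Chrna5 and Chat, and overlapped elsewhere. In Sp5C the order ran Slc5a7, Chrna4, Chrnb2, Chrna7, Chat, Chrna3, Chrnb4, Chrna6, Chrna5 and Chrnb3. There the ranges were separate between Chrna4 and Chrnb2, Chrnb2 and Chrna7, and Chat and Chrna3. Slc5a7 exceeded Chrna4 in 3 of 6 Sp5C libraries, and Chrna7 exceeded Chat in 4 of 6.

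Taking the 8 subunit genes as one pool shows how its makeup differed. Their FPKM summed to 39.8 ± 4.43 in TG and to 29.2 ± 1.67 in Sp5C (SD, n = 6 each, two-sided exact permutation p = 0.00216, the smallest that 6 against 6 libraries allow). Chrna4 made up 43.6% ± 2.29 of the pool in Sp5C and 0.499% ± 0.374 in TG. Chrna7 made up 41.2% ± 6.63 in TG and 18.9% ± 1.75 in Sp5C. Chrna6 held 12.2% ± 6.46 in TG and 0.399% ± 0.313 in Sp5C, and Chrnb3 held 9.39% ± 2.33 and 0.193% ± 0.196. For these 4 genes the tissues did not overlap (exact permutation adjusted p = 0.00433 over the 8 shares, which are parts of one sum and not independent).

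The share of Chrnb2 differed little, at 31.6% ± 3.27 in TG and 34.2% ± 0.58 in Sp5C (exact permutation adjusted p = 0.0371). It was lower in TG although the level of Chrnb2 was higher there. With 1 library left out its exact permutation adjusted p ranged from 0.00693 to 0.0891, and those of Chrna3 and Chrnb4 reached 0.0519. Shares of Chrna3 (2.66% ± 0.855 in TG, 1.67% ± 0.478 in Sp5C, exact permutation adjusted p = 0.0173) and Chrnb4 (2.15% ± 0.953, 0.792% ± 0.502, 0.0202) were higher in TG with overlapping ranges. Without SSp5C replicate 1 the count of shares that passed was 4 in place of 7. Chrna5 held 0.325% ± 0.213 in TG and 0.312% ± 0.139 in Sp5C and did not pass (exact permutation adjusted p = 0.883).

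**Figure D2:**
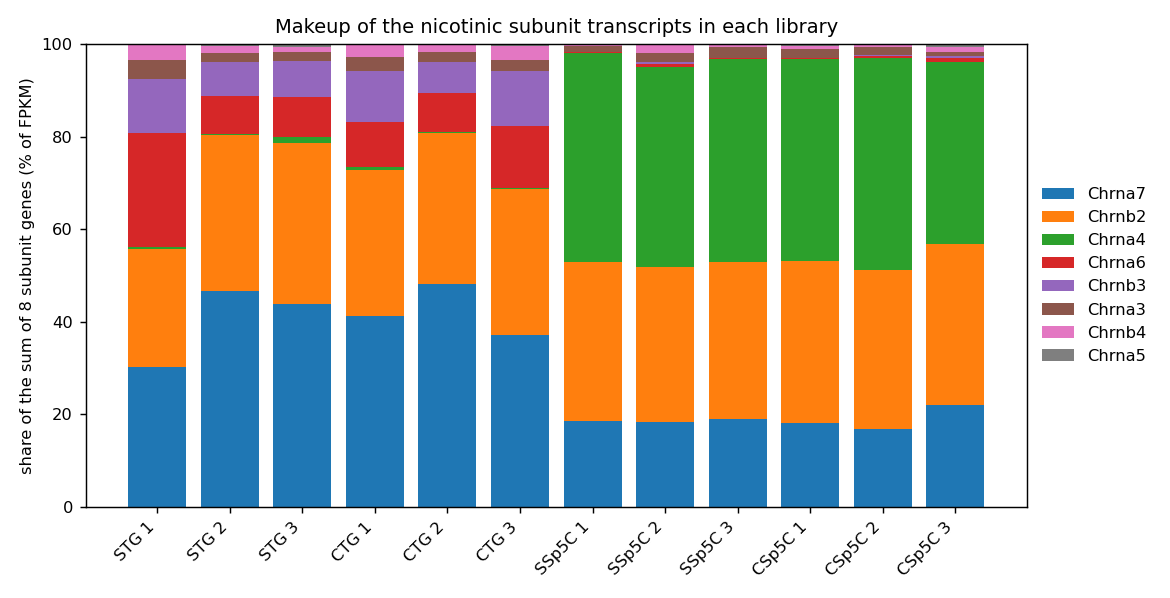
Share of each nicotinic subunit gene in the summed FPKM of the 8 subunit genes (percent, stacked to 100), for each of the 12 libraries. Chrna4 takes the place in Sp5C that Chrna7, Chrna6 and Chrnb3 take in TG, Chrnb2 stays near a mean of 31.6% in TG and 34.2% in Sp5C, and STG replicate 1 shows the highest share of Chrna6 (24.7%).

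Log2 ratios were taken within each library for 5 pairs of genes, with a pseudocount of 1. Chrna3 over Chrna4 was 0.79 ± 0.327 in TG and -3.21 ± 0.135 in Sp5C (SD, n = 6 each, exact permutation adjusted p = 0.00361 over the 5 pairs). Chrnb4 over Chrnb2 did not pass at -2.88 ± 0.37 and -3.16 ± 0.163 (exact permutation adjusted p = 0.143), nor did Chrna6 over Chrnb3 at 0.24 ± 0.388 and 0.08 ± 0.0984 (0.446). With a pseudocount of 0.1 the Chrnb4 to Chrnb2 difference grew to 1.22 and passed (exact permutation adjusted p = 0.0253). Ratios of Chat to Slc5a7 and to Slc18a3 passed at 0.00361 each (exact permutation adjusted p), but the first difference turned from 1.09 to -0.27 with a pseudocount of 0.1, and the second rests on TG values at which both genes are near 0, so that the pseudocount sets the TG ratio. No direction is drawn from either.

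At the level of transcripts, 9 of the 25 entered limma's test at a mean of 0.5 FPKM and all 9 passed, 6 higher and 3 lower in TG, against 48.7% of 24797 transcripts, 24.3% higher and 24.4% lower. Without the filter 21 transcripts had a value above 0, and 6 passed as higher and 5 as lower in TG, against 30.3% of 46067, 15.4% higher and 15% lower. Of the 9, the main Chrna7 and Chrnb2 transcripts alone had a mean of at least 0.5 FPKM in both tissues, and the other 7 entered the test through the tissue in which they were high. The main Chrna3 transcript, ENSMUST00000034851, lost its call without CTG replicate 1 (limma adjusted p = 0.0504) and without SSp5C replicate 1 (0.0527), against 0.0226 with all libraries. In each gene with a mean of at least 1 FPKM a single transcript carried most of the level. For Chrnb2 this was ENSMUST00000029562 with a share of 99.9% ± 0.101 in TG and 99.7% ± 0.318 in Sp5C, and the other held the rest (exact permutation adjusted p = 0.247). After adding 0.1 FPKM to each transcript that share passed with a difference of 0.364 percentage points (exact permutation adjusted p = 0.00649).

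The main Chrna4 transcript, ENSMUST00000067120 (chromosome 2, 181022311 to 181039305, minus strand, 6 exons), had a log2(FPKM + 0.5) difference of -4.25 (limma adjusted p = 1.92e-09). A short annotated transcript of the gene's far end, ENSMUST00000198922 with 3 exons and 519 bases, followed it. It stood at 0.462, 0.47 and 0.668 FPKM in SSp5C and 0.522, 0.395 and 0.539 in CSp5C, and was listed at 0 in every TG library except CTG replicate 2 (0.0896). Both remaining Chrna4 transcripts were listed at 0 throughout. Chat was carried by ENSMUST00000070125 (chromosome 14, 32408203 to 32465957, minus strand, 16 exons). Of its other 6 transcripts, ENSMUST00000227579 ranged from 0.0112 to 0.34 FPKM in Sp5C and was listed at 0 in TG. ENSMUST00000228511 reached 0.545 FPKM in CSp5C replicate 3 and was listed at 0 elsewhere.

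The transcripts of Chrnb3 divided unevenly between TG libraries. Its main transcript, ENSMUST00000060943, stood at 5.09, 2.55 and 1.81 FPKM in STG and 2.97, 2.55 and 3.24 in CTG. ENSMUST00000211104 stood at 0.0119, 0.0873 and 0.825 in STG and 1.16, 0.000267 and 1.64 in CTG. That second transcript was thus near 0 in 3 TG libraries and substantial in the other 3, with no order by letter. It did not pass between tissues (log2 difference 0.88, limma adjusted p = 0.103 without the filter). Reads shared by overlapping transcripts are divided by estimation, so single-transcript values of such a gene are uncertain.

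The second comparison set C against S libraries within each tissue. In TG 0 of the 10 genes passed limma's test, with or without the filter, where 0.00775% of 12906 genes passed (0.0054% of 18513 without the filter). Nor did any have an unadjusted p under 0.05, which 606 of the 12906 genes had (810 of the 18513 without the filter). Chrna7 averaged 16.7 ± 2.45 FPKM in CTG libraries and 15.8 ± 2.1 in STG libraries (SD, n = 3 each), with a log2 difference of 0.07 (95% interval -0.225 to 0.373). Chrnb2 stood at 12.6 ± 0.746 and 12.3 ± 0.713, with a difference of 0.04 (-0.13 to 0.201). These intervals were narrow, whereas that of Chrna6 reached from -1.37 to 0.94 around -0.21. Without STG replicate 1 the Chrna6 difference turned to 0.34, and without both STG replicate 1 and CTG replicate 1 to 0.41, neither passing.

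Chrnb3 differed by 0.11 on the log2 scale in TG (95% interval -0.527 to 0.738) and Chrna3 by -0.07 (-0.608 to 0.478). Limma's adjusted p for the 5 genes past the filter in TG lay between 0.969 and 0.988. None of the 10 genes had all CTG libraries on one side of all STG libraries, which 9.73% of the 18513 genes with any value did. The median log2 difference of the 5 genes was 0.036, and that of all genes tested was -0.006.

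In Sp5C 0 of the 10 genes passed limma's test, with or without the filter. Of all genes 0.0315% of 12690 passed (0.0272% of 18410 without the filter). None of the 10 had an unadjusted p under 0.05, which 637 of the 12690 had (1012 of the 18410 without the filter). Chrna4 averaged 12.1 ± 1.12 FPKM in CSp5C libraries and 13.3 ± 0.185 in SSp5C libraries (SD, n = 3 each), with a log2 difference of -0.12 (95% interval -0.296 to 0.049, limma adjusted p = 0.931). Chrna7 differed by -0.05 (-0.323 to 0.215) and Chrnb2 by -0.05 (-0.201 to 0.099). For these receptor genes a change of 1 on the log2 scale lay outside the intervals. For Chat (0.17, interval -0.964 to 1.31) and Slc5a7 (0.25, interval -1.03 to 1.53) it lay inside. Of the 10 genes, 0 had separate CSp5C and SSp5C ranges, against 10.6% of 18410 genes. The median log2 difference of the 5 genes past the filter was -0.051, and that of all genes tested was 0.001.

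**Figure D3:**
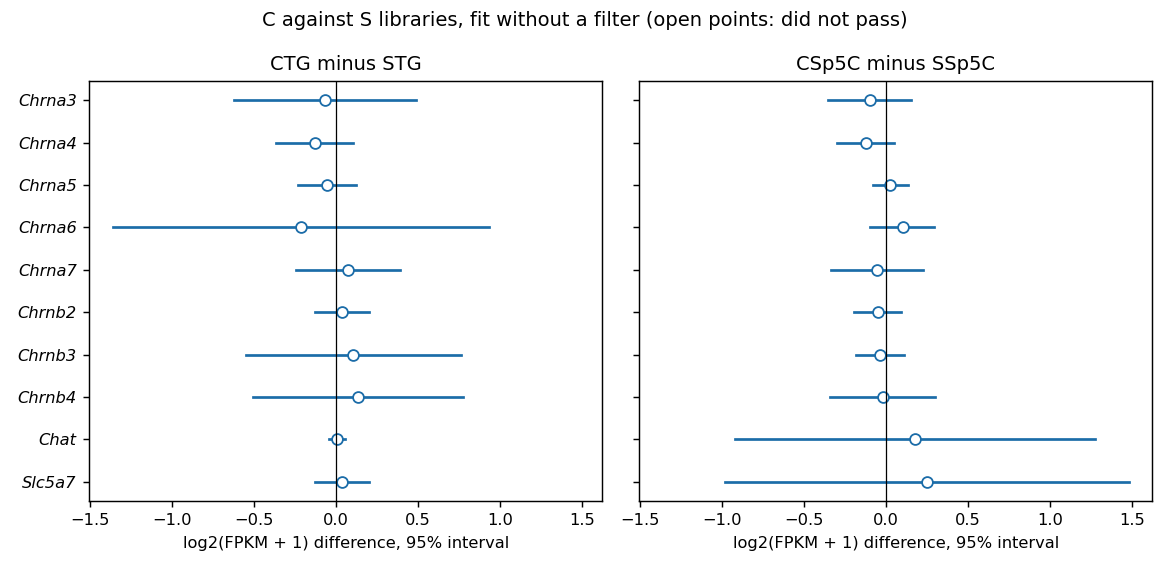
Difference between C and S libraries on the log2(FPKM + 1) scale for the 10 genes, with 95% intervals, in TG (left) and Sp5C (right), from limma's fit without a filter on low values. All points are open because 0 of the 10 genes passed. The widest intervals are those of Chrna6 in TG and of Chat and Slc5a7 in Sp5C.

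Whether the C against S difference was the same in both tissues was tested over all 12 libraries. Of the 7 genes past the filter 0 passed, as did 0% of all 13081 genes. None of the 7 had an unadjusted p under 0.05, which 708 of the 13081 had. The difference between the tissues ranged from -0.31 (Chrna6, 95% interval -1.47 to 0.84) to 0.14 (Chrnb3, -0.522 to 0.807). For Chrna4 it was -0.01 (-0.316 to 0.305).

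For Chat and Slc5a7, 2 CSp5C libraries stood at opposite ends of the Sp5C range. CSp5C replicate 3 had 5.39 times the Chat level and 4.91 times the Slc5a7 level of CSp5C replicate 2, while the 3 SSp5C libraries stayed between 3.64 and 3.97 FPKM for Chat. Without CSp5C replicate 3 the C minus S difference of Chat was -0.28, and without CSp5C replicate 2 it was 0.68, neither passing. The vesicular transporter Slc18a3 took the same course, at 9.38, 7.33 and 9.26 FPKM in SSp5C and 13.4, 3.78 and 22.8 in CSp5C. Slc10a4, a vesicle protein of cholinergic neurons, stood at 3.9, 3.46 and 4.3 in SSp5C and 5.88, 2.06 and 11.6 in CSp5C. In the GRCm38 annotation Slc18a3 (chromosome 14, 32462438 to 32464850, minus strand) lies inside Chat (32408203 to 32465989) on the same strand, so reads of these genes may not be fully separable.

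Some of the 8 listed motor neuron markers had the same lowest and highest Sp5C library as Chat, and others did not. Chodl stood at 3.17, 2.74 and 3.91 FPKM in SSp5C and 4.99, 1.02 and 9.2 in CSp5C. Isl1, a transcription factor of motor neurons that sensory neurons share, stood at 0.672, 0.643 and 0.528 in SSp5C and 1.03, 0.246 and 1.83 in CSp5C. Prph, an intermediate filament of neurons that project to the periphery, stood at 17.8, 16 and 14.9 in SSp5C and 19.3, 7.17 and 33.2 in CSp5C. These 3 were lowest in CSp5C replicate 2 and highest in CSp5C replicate 3, as were Chat and Slc5a7.

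Of the 8 motor neuron markers, 5 had a mean of at least 1 FPKM in Sp5C, and 3 of these 5 (Chodl, Prph and Vipr2) were lowest in CSp5C replicate 2 and highest in CSp5C replicate 3 by more than 2-fold. That holds for 0.331% of 12690 genes, and the order alone for 3.37%. Other listed markers with such a mean shared the order too. They were 2 of 8 of neurons in general and 1 of 4 of the sensory ganglion, none by more than 2-fold. Of 5 autonomic neuron markers, 1 shared it by more than 2-fold (Vip, 0.962 and 1.93 FPKM in CSp5C replicates 2 and 3). Of the Sp5C markers 0 of 8 shared it. The order was read from Chat and Slc5a7 in these same libraries, so these shares describe the pattern and test nothing. The summed level of the list was 22.9 to 25.7 FPKM in SSp5C and 12.1 to 50.2 in CSp5C. Mnx1, which defines motor neurons early in development, was listed at 0 in every Sp5C library except SSp5C replicate 2 (0.0458). Esrrb (1.74, 1.91 and 1.52 in SSp5C, 1.97, 1.82 and 2.19 in CSp5C) and Mmp9 (1.23, 1.16 and 1.1, then 1.21, 1.3 and 1.49) did not share the order. Isl1 and Isl2 did, but at means below 1 FPKM, outside the count. The 3 receptor subunits that are abundant in Sp5C did not share it either. In CSp5C replicates 2 and 3 Chrna4 stood at 13.4 and 11.7 FPKM, Chrnb2 at 9.97 and 10.3 and Chrna7 at 4.92 and 6.56. The part of motor neuron content in the Chat and Slc5a7 levels was not tested.

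**Figure D4:**
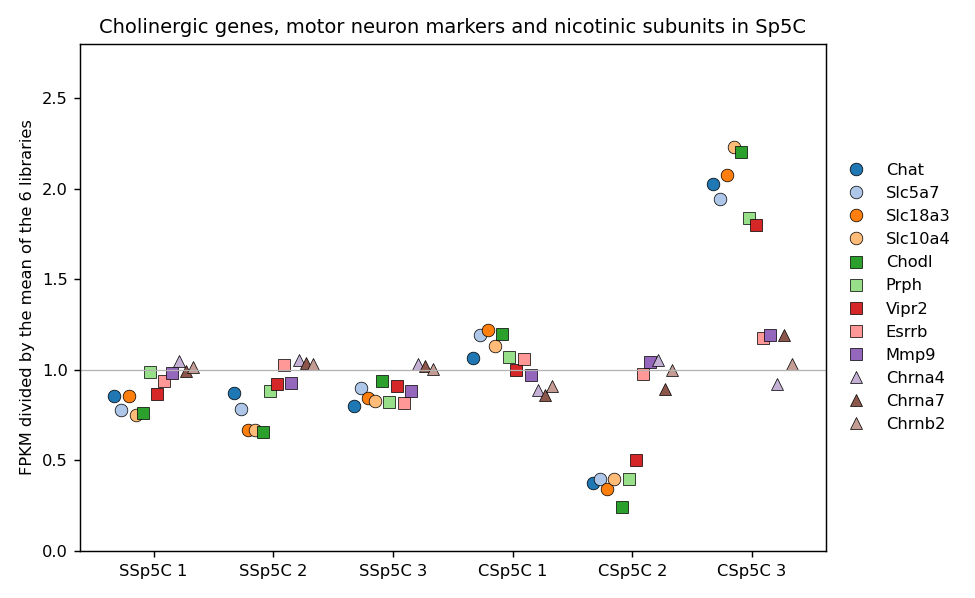
FPKM of 12 genes in the 6 Sp5C libraries, each divided by the mean of the gene over those libraries (linear axis from 0). Circles are Chat, Slc5a7, Slc18a3 and Slc10a4, squares the 5 motor neuron markers with a mean of at least 1 FPKM, and triangles the subunits Chrna4, Chrna7 and Chrnb2. Circles and the squares of Chodl, Prph and Vipr2 sit low in CSp5C replicate 2 and high in CSp5C replicate 3, while triangles and the squares of Esrrb and Mmp9 stay closer to 1.

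The other genes of cholinergic signalling were taken from lists written beside the members. None of the 8 other nicotinic subunit genes reached the filter in any comparison, and their summed level lay between 0.506 and 1.14 FPKM in every library. Chrna1 of the muscle receptor ranged from 0.0459 to 0.127 in TG and from 0 to 0.0313 in Sp5C. Without the filter it was higher in TG (0.10, limma adjusted p = 0.00172), and Chrna2 was lower there (-0.55, limma adjusted p = 4.66e-06). Of the 5 muscarinic receptors, the G protein-coupled receptors for acetylcholine, 3 were tested between tissues, and 2 were lower and 1 higher in TG, with a median log2 difference of -1.70 against 0.01 for all genes, of which 71.2% passed. Chrm2 stood at 2.46 to 3.97 FPKM in TG and 12.1 to 15.6 in Sp5C (log2 difference -1.81, limma adjusted p = 7.34e-09). Chrm3 stood at 0.802 to 1.78 and 5.47 to 7.02 (-1.70, limma adjusted p = 8.79e-08). Chrm4 was higher in TG (0.55, limma adjusted p = 0.00181), with overlapping tissues.

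Of 9 genes of vesicular transport, breakdown and choline supply, 4 were higher and 3 lower in TG, with a median log2 difference of -0.01. This share is near the 71.2% of all genes that passed (36.2% higher, 35% lower). Slc18a3 was at or below 0.0308 FPKM in TG (log2 difference -3.39, limma adjusted p = 2.25e-06) and Slc10a4 at or below 0.307 (-2.25, limma adjusted p = 1.99e-05). Acetylcholinesterase (Ache), which ends the signal in the synapse, was lower in TG but far from absent there, at 23.5 to 30.9 FPKM against 41.4 to 58.1 (-0.84, limma adjusted p = 4.43e-06). Butyrylcholinesterase (Bche), at 4.16 to 9.9 FPKM in TG and 2.36 to 3.19 in Sp5C, was higher in TG (1.07, limma adjusted p = 5.16e-05). So was Colq, the collagen tail that anchors acetylcholinesterase at the muscle endplate, at 1.77 to 2.83 against 0.553 to 1.1 (0.91, limma adjusted p = 1.91e-05). Pcyt1a and the choline transporter Slc44a1 passed with differences of 0.55 and 0.18, and neither passed in the S libraries alone (limma adjusted p = 0.123 and 0.102). For Pcyt1a, SSp5C replicate 2 stood at 5.83 FPKM and the other Sp5C libraries at 14 to 15.4. Slc44a1 did not pass in the C libraries alone either (limma adjusted p = 0.0878).

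Of the 7 measured genes of receptor assembly and of the Ly6 family of prototoxins, which bind nicotinic receptors, 4 were lower in TG and none higher (median log2 difference -0.19), where 35% of all genes passed as lower and 36.2% as higher. Lypd1 stood at 0.734 to 1.86 FPKM in TG and 6 to 8.48 in Sp5C (-1.90, limma adjusted p = 6.1e-08), and Lypd6b at 0.546 to 0.994 and 3.57 to 5 (-1.52, limma adjusted p = 1.35e-08). The chaperone Tmem35a, which is needed for the assembly of Chrna7 receptors, stood at 13.3 to 15.7 and 20.1 to 23.4 (-0.53, limma adjusted p = 8.11e-07). It was thus lower in the tissue where Chrna7 was higher. Ric3, also a chaperone of Chrna7, differed by -0.19 (limma adjusted p = 0.00637, 0.093 in the C libraries alone), with overlapping tissues. Of the 4 lists, 0 genes passed between C and S libraries in either tissue. Among all genes 0.00775% of 12906 passed in TG and 0.0315% of 12690 in Sp5C, so a count of 0 says little about these lists. The other nicotinic subunits did not enter these tests, as they missed the filter.

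**Figure D5:**
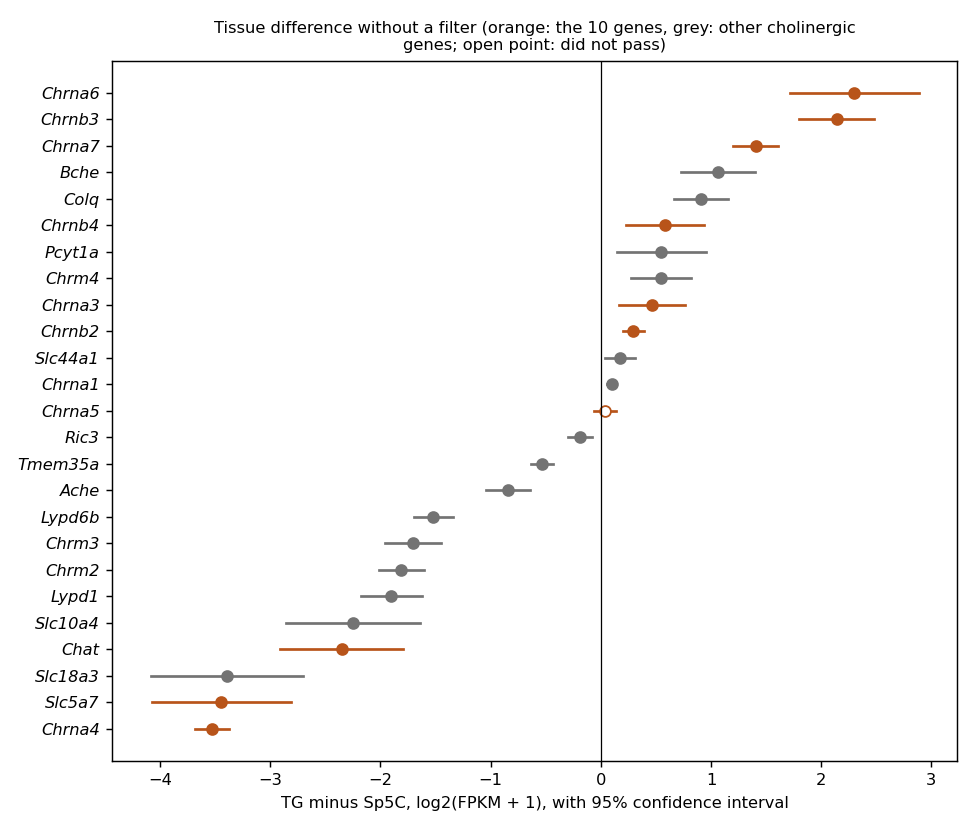
Difference between TG and Sp5C on the log2(FPKM + 1) scale with 95% intervals, from limma's fit without a filter on low values. Orange points are the 10 genes and grey points the other cholinergic genes named in the text except Chrna2. The open point (Chrna5) did not pass. Chrna4, Slc5a7, Slc18a3 and Chat lie at the Sp5C end (-3.53 to -2.35), and Chrna6 and Chrnb3 at the TG end (2.30 and 2.14).

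For each of the 7 genes past the filter, the genes with the most similar profile over the 12 libraries were sought among 13081. Likeness was the root mean square distance between log2(FPKM + 1) profiles, each centred on its own mean. The nearest gene to Chrna6 was Chrnb3 (0.271). The nearest to Slc5a7 was Slc18a3 (0.0986), and the nearest to Chat was Slc10a4 (0.15), followed by the potassium channel gene Kcnj14 (0.324). The second for Slc5a7 was the peptidase gene Ecel1 (0.351). Chrnb3 lay closest to the predicted gene Gm10591 (0.124) and then to the potassium channel gene Kcnn4 (0.196). Chrna7 lay closest to the orphan receptor gene Gpr149 (0.0839), Chrna4 to Tppp (0.0823), which encodes a tubulin-binding protein, and Chrnb2 to Pafah1b1 (0.043), which encodes a regulator of dynein. The second for each of these 3 was D130043K22Rik (0.106) for Chrna7, Dtx1 (0.0919) for Chrna4 and Arfgef2 (0.0447) for Chrnb2, and the second for Chrna6 was Gm10591 (0.291).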

How the data were processed

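Ribosomal RNA was removed from total RNA and directional libraries were prepared, per the labels' protocols. Per the submitters' processing notes, the tools were HISAT2, StringTie 1.3.1 and Cuffdiff 2.1.1. Build and annotation: not given in the sources used here. Values deposited by the authors are FPKM per transcript, and 99.7% of the transcript identifiers occur in GENCODE M21. Both lncRNA tables were not used here.

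Transcripts were summed by gene. Log2 values were taken after adding 1 FPKM (genes) or 0.5 (transcripts), and features with a mean of at least 1 or 0.5 FPKM over the libraries compared entered limma (version 3.58.1, R 4.3.3, trend and robust moderation, two-sided, Benjamini-Hochberg over all features, threshold 0.05). The fit was also run on simulated data with independent noise for each gene and library. Genes that shift together in one library, as the pituitary genes did, are not part of it, so no conclusion is drawn from it. The letters were compared within a tissue, and all 12 libraries entered the tissue contrast and the difference of effects. Shares and ratios were tested by exact permutation over libraries.

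The 10 genes and all lists were chosen with earlier results of these data known. The rule for naming took all 10 genes and their transcripts, of which the low ones are given by counts. From each list at most 4 genes that passed are named per direction, besides Slc18a3, Ache and Chrna1, and 2 genes of similar profile for each of the 10 past the filter. Chrna2 and the motor neuron markers described were chosen after their values were seen. Alternatives were another pseudocount, no filter, median-ratio scaling, each library left out, a block for the replicate number, and other sets of libraries. Library scale factors by median ratio lay between 0.978 and 1.03, and at most 0.00617% of values above 0 were identical between libraries.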

Additional observations from a re-analysis of the deposited data

Results flagged for a closer look

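Over the 6 libraries of a tissue, 3 of 20 combinations of gene and tissue had a library that stood apart by Dixon's criterion (the gap to the next library as a share of the whole range), which chance gives in about 1 of 20. Chrna6 was at 11.7 FPKM in STG replicate 1, and the next TG library was at 5.46 (gap 0.71 of the range). Chrnb2 was at 9.1 FPKM in CSp5C replicate 1, below the next Sp5C library at 9.97 (0.716 of the range). Chrna5 was at 0.172 FPKM in CSp5C replicate 3, above the next at 0.0976 (0.639 of the range), in a gene that stays close to 0 everywhere.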

How the results depend on the processing

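Of 154 counts of the 10 genes (or their transcripts) past the threshold under an alternative, 153 were within 1.5 times the main count. The exception was the count of transcripts lower in TG, 5 without a filter in place of 3. Among the 153 are all counts for C against S and for the difference of effects. Those were 0 in the main fit and stayed 0, so they say little about stability. The count of genes higher in TG, 6 without a filter in place of 4, lay at the limit of 1.5 and is also among the 153. The 7 tissue calls held in every alternative in which they were tested, also in the S and in the C libraries alone. The number of all genes that passed between letters was 0 in TG and 0 in Sp5C with the replicate block, and 0 and 0 in one fit of all 12 libraries, in place of 1 and 4. Leaving out 1 library gave 0 to 7 in TG, 0 to 8 in Sp5C and 0 to 2 for the difference of effects (0 in the main fit). Without STG replicate 1 and CTG replicate 1 together, an alternative chosen after seeing the data, these counts were 5 in TG and 2 for the difference, and Chrna6 turned to 0.407 and 0.307. Transcripts of the 10 genes that passed as higher in TG numbered 5 to 6 when 1 library was left out. Shares that passed numbered 4 to 7 when 1 library was left out, and transcript shares that passed numbered 2 with 0.1 added. The cause of these shifts was not tested.

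Other reversals concerned values that had not passed, except Chat over Slc5a7 (-0.274 with a pseudocount of 0.1). Chrna6 over Chrnb3 turned to -0.16 with that pseudocount, the Chrna5 share to -0.071 with 0.1 added, and the Chrna4 difference of effects to 0.008 after median-ratio scaling. With 1 library left out, C minus S ranged in TG from -0.509 to 0.336 for Chrna6, -0.037 to 0.174 for Chrna7 and -0.047 to 0.363 for Chrnb3. In Sp5C it ranged from -0.278 to 0.679 for Chat, -0.216 to 0.842 for Slc5a7 and -0.179 to 0.02 for Chrna7. The difference of effects ranged from -0.674 to 0.283 for Chat, -0.808 to 0.251 for Slc5a7, -0.085 to 0.084 for Chrna4, -0.609 to 0.236 for Chrna6 and -0.01 to 0.399 for Chrnb3, and the Chrna5 share difference from -0.042 to 0.0674.

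Deviations from group means of libraries with the same replicate number correlated at -0.197 to 0.383 over 18 pairs, over 0.1 in 5. By these correlations the numbers show no pairing over all 4 groups, although weak correlations cannot exclude shared animals. CTG with CSp5C is the exception, with all 3 pairs at 0.228 to 0.383 and all 6 libraries closest to their own number, a hint from the data and not from the design. In the C libraries alone, the replicate block (chosen after seeing the data) left 7914 genes called between tissues in place of 7429, with the same 4 genes higher and 3 lower of the 10. Libraries closest to their own number were 3 of 6 in STG with CTG, 2 of 6 in SSp5C with CSp5C and 1 of 6 in STG with CSp5C. They were 0 of 6 in CTG with SSp5C and 0 of 6 in STG with SSp5C, where the pairs correlated at -0.197 to -0.0227. The replicate block left 9292 genes called between tissues in place of 9314 and changed no call of the 10 genes. Depth is unknown from FPKM, which limits Chrna5 and the low transcripts most.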

Other observations

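Dbh, Ddc and Th, from a list of autonomic neuron markers, differed between the tissues, and not all in one direction. Dbh, which makes noradrenaline, stood at 1.2 to 3.32 FPKM in Sp5C and was listed at 0 in 4 TG libraries (log2 difference -1.61, limma adjusted p = 8.12e-07). Ddc, the decarboxylase that follows Th, stood at 6.45 to 8.56 FPKM in Sp5C and 0.331 to 1.06 in TG (-2.34, limma adjusted p = 4.46e-09). Th, the first enzyme of catecholamine synthesis, was higher in TG, at 5.52 to 9.74 FPKM against 1.56 to 4.79 (0.93, limma adjusted p = 0.000924). None of the 10 skeletal muscle genes reached a mean of 1 FPKM over the libraries of a comparison, although their summed level was 22.2 FPKM in CTG replicate 1 and at most 2.12 elsewhere.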
